A study of Mus musculus with 8 samples.

Results

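The neurofilament and alpha-internexin genes Nefl, Nefm, Nefh and Ina were examined in polyadenylated RNA of mouse brain cortex. They were chosen by symbol from the 15693 genes of the deposited tables, and all 4 were present. The samples were 8 libraries of batch 1 from mice aged 4 months, 4 labelled wild type (WT) and 4 labelled TDP-43Q331K, and no treatment is named for either group. The genotype field calls the WT mice C57BL/6J, whereas the series text names c57bl6/n. TDP-43 is the RNA-binding protein encoded by Tardbp, and the mutation is linked to amyotrophic lateral sclerosis (ALS). The labels give no promoter, copy number or background for the mutant line, and do not say whether a library came from 1 animal, so p values cover only the spread between these libraries.

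Neurofilaments are the main intermediate filaments of axons. In the central nervous system they assemble from the light, medium and heavy subunits, encoded by Nefl, Nefm and Nefh, together with alpha-internexin, encoded by Ina. The light subunit is needed for filaments to form, whereas the medium and heavy subunits carry long tails that are heavily phosphorylated in axons and take part in setting axon calibre. In human ALS, NEFL messenger RNA is known to be reduced in spinal motor neurons, the human NEFL transcript is known to be bound by TDP-43, and the light chain released into blood is used as a marker of axonal damage.

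Total counts per library ran from 45253021 to 58115164. Xist was at 876 CPM (reads of a gene relative to the TMM-scaled total of its library) or more in 4 libraries and at 1.37 CPM or less in the others, so that each group held 2 libraries read as female and 2 read as male. Female libraries were WT replicates 2 and 3 and TDP-43Q331K replicates 1 and 2. Pan-neuronal markers summed to between 8811 and 9812 CPM in all libraries, and upper layer cortical markers to between 692 and 917 CPM. Markers of tissues next to the cortex were also found and are given beside the results they accompany. Tardbp had 171, 198, 193 and 176 CPM in WT and 162, 141, 167 and 149 CPM in TDP-43Q331K. Its groups did not overlap, as in 9.68% of all genes in either direction, and it missed the threshold (edgeR log2 fold change -0.25, SE 0.07, adjusted p 0.106 over all genes). In bulk tissue, a change in the number of cells of a type and a change in RNA per cell cannot be told apart.

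The 4 genes descend from a common ancestor, and the 30 coding bases in which their transcripts are most alike are shown to display how far their reads can be told apart. They come from the GENCODE M21 transcripts (build GRCm38), 5′ to 3′ on the transcript strand, and capitals mark the 24 bases that all 4 share. The stretch begins at base 1217 of the Nefl transcript, 1177 of Nefm, 1277 of Nefh and 1192 of Ina.
Nefl: TACCAGGAccTcCTcAAtGTCAAgATGGCC
Nefm: TACCAGGAtcTcCTtAAcGTCAAgATGGCC
Nefh: TACCAGGAccTgCTcAAcGTCAAgATGGCC
Ina: TACCAGGActTgCTcAAtGTCAAaATGGCC
Over the aligned coding bases, identity between pairs ran from 67.4% for Nefl and Ina to 71.6% for Nefh and Ina. The longest run of identical bases in any pair was 23 bases, in Nefm and Nefh, and the shortest of these longest runs was 13 bases, in Nefl and Ina.

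TDP-43 binds UG-rich RNA, so the hexamer TGTGTG was looked for on the transcript strand, as a description of the letters alone. It occurred once in Nefl and once in the main Nefm transcript, in the 3′ untranslated region of each, and its position is shown with capitals marking the hexamer. The longer Nefm transcript held 3 matches. The hexamer was not among the letters of the Nefh or Ina transcript.
Nefl, bases 3328 to 3357: catattcaatccTGTGTGccataataaaat
Nefm, bases 3067 to 3096: acataagccaaaTGTGTGgtgatgtgtcat
The hexamer is common, being present in 79.1% of the 6837 protein-coding transcripts of 3000 to 4000 bases, the range that holds the 4 transcripts.

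Nefl and Nefm lie beside each other on chromosome 14, on opposite strands, whereas Nefh is on chromosome 11 and Ina on chromosome 19. In GENCODE M21 a longer Nefm transcript runs across Nefl, so that 1108 exonic bases of the pair coincide on opposite strands. Ina likewise shares 456 exonic bases with the oppositely transcribed Nt5c2. The library kit marks strand, but no source used here says whether strand entered the counting, and without it reads from these bases cannot be assigned with certainty. No coordinates are given because the annotation is of GRCm38 and the authors name GRCm39.

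Nefm, the medium subunit gene, rose in TDP-43Q331K cortex, and it was the member with the clearest difference. It had 214, 202, 228 and 218 CPM in the WT libraries and 305, 292, 258 and 248 CPM in the TDP-43Q331K libraries. Every mutant library was above every WT library. Means were 216 ± 10.7 CPM in WT and 276 ± 27.1 CPM in TDP-43Q331K (SD, n = 4 each), and the fitted fold was 1.28. The log2 fold change was 0.36 (SE 0.07, 95% interval 0.20 to 0.51), with an edgeR adjusted p of 0.0480, only just under the threshold of 0.05. Among all genes, 0.943% passed this test, 0.344% as higher and 0.599% as lower, and in 9.68% the groups did not overlap, in 4.49% with the mutant libraries above. Of the 54 genes called higher, Nefm was 4th by level and 35th by fold, where the median fold was 1.35.

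The call of Nefm, though not its direction, depended on the libraries kept and on the fit. Without 1 library the log2 fold change lay between 0.30 and 0.40, but it passed only in the fit without TDP-43Q331K replicate 4 (edgeR adjusted p 0.0401). Adjusted p without WT replicates 1 to 4 was 0.147, 0.131, 0.0626 and 0.0863, and without TDP-43Q331K replicates 1 to 3 it was 0.113, 0.119 and 0.0680, in edgeR's test. The unadjusted p of Nefm was at most 0.00197 in these 8 fits, each of which has fewer samples. With all libraries, the adjusted p in edgeR's test was 0.0520 with RLE scaling, 0.0564 with oligodendrocyte markers as a covariate, 0.180 with the replicate number as a block and 0.386 with thalamus and olfactory bulb markers as a covariate. DESeq2, which called 4.47% of all genes, gave 0.35 with an adjusted p of 0.000305.

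Nefl, the light subunit gene, stayed within the spread of the libraries. It had 302, 284, 306 and 278 CPM in WT and 300.3, 321, 283 and 296 CPM in TDP-43Q331K, and the groups overlapped through most of their range. The means were 293 ± 13.5 and 299.9 ± 15.9 CPM (SD, n = 4 each). The edgeR log2 fold change was 0.04 (SE 0.05, adjusted p 0.793) and its 95% interval -0.08 to 0.15.

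Nefh, the heavy subunit gene, had a shift of the same size as Nefm but with more spread. It had 60.6, 54.6, 74.2 and 63.7 CPM in WT and 83.2, 89.7, 69.1 and 80.1 CPM in TDP-43Q331K. The groups overlapped through WT replicate 3, the highest WT library, and TDP-43Q331K replicate 3, the lowest mutant library. The means were 63.2 ± 8.20 and 80.5 ± 8.61 CPM (SD, n = 4 each), with a log2 fold change of 0.35 (SE 0.10, 95% interval 0.13 to 0.57). With edgeR it missed the threshold (adjusted p 0.126). Its unadjusted edgeR p was 0.00472, rank 583 by p among the 15693 genes in either direction. At the looser cut of an unadjusted p under 0.05, 7.91% of all genes were higher. DESeq2 gave 0.34 and an adjusted p of 0.0240. Without WT replicate 3 the log2 fold change was 0.43 (edgeR adjusted p 0.0626) and without TDP-43Q331K replicate 3 it was 0.42 (edgeR adjusted p 0.102).

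Ina, which encodes alpha-internexin, had 173, 180.1, 197 and 168 CPM in WT and 199, 193, 188 and 174 CPM in TDP-43Q331K. The lowest mutant library lay below the WT replicates 2 and 3, so the groups overlapped. The means were 179.6 ± 12.7 and 189 ± 10.7 CPM (SD, n = 4 each), with a log2 fold change of 0.07 (SE 0.06, 95% interval -0.06 to 0.21, edgeR adjusted p 0.604).

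**Figure D1:**
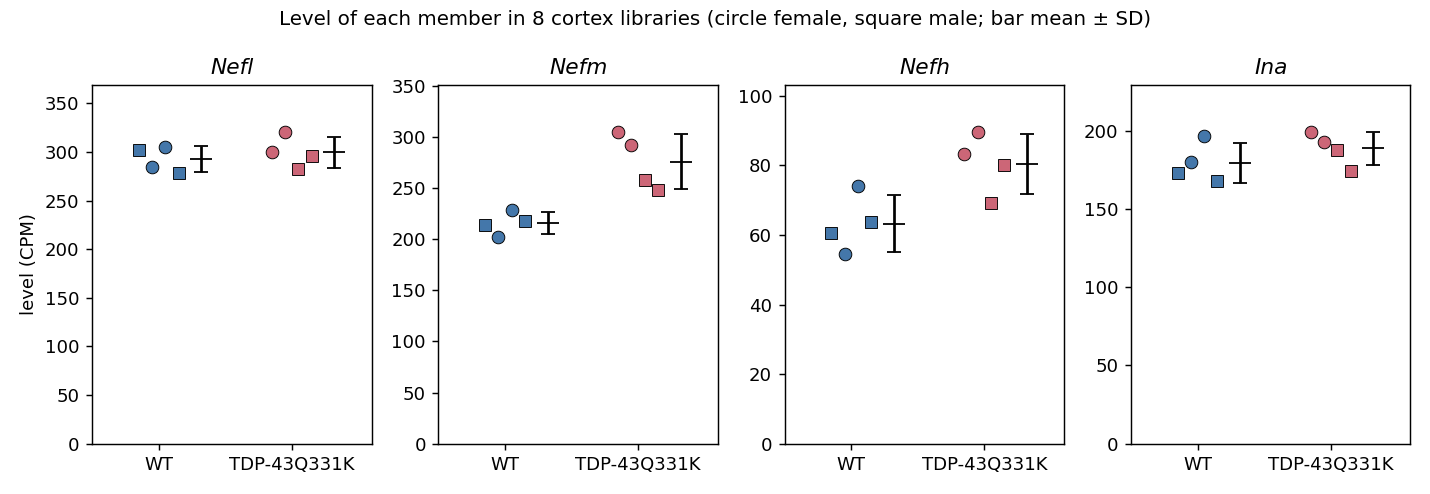
Level of Nefl, Nefm, Nefh and Ina in CPM (vertical axes, each from 0) in the 4 WT (blue) and 4 TDP-43Q331K (red) libraries, circles for libraries read as female and squares for male, with mean ± SD beside each group. The groups are apart for Nefm, overlap at 1 library each for Nefh, and overlap widely for Nefl and Ina.

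Levels of different genes were compared per kilobase of their main transcript. In WT, Nefl was highest with 86.6 ± 3.98 CPM per kilobase (SD, n = 4), followed by Nefm with 64.7 ± 3.21, Ina with 55.4 ± 3.92 and Nefh with 15.8 ± 2.05. Only Nefm and Ina touched in that order, where the highest Ina library (60.8 CPM per kilobase) was level with the lowest Nefm library (60.7). In TDP-43Q331K the order was the same, but Nefm, with 82.8 ± 8.14 CPM per kilobase (SD, n = 4), now overlapped Nefl with 88.7 ± 4.70. Ina had 58.3 ± 3.31 and Nefh 20.2 ± 2.16 CPM per kilobase (SD, n = 4 each) in the mutant libraries, each below every value of the gene before it. These values take each gene to be its main transcript and its reads to be spread evenly.

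As a share of the summed reads per base of the 4 genes, Nefm made up 29.1 ± 0.854% (SD, n = 4) in WT and 33.1 ± 1.34% in TDP-43Q331K. Nefl made up 38.9 ± 1.06% in WT and 35.5 ± 1.36% in TDP-43Q331K (SD, n = 4 each). Neither share overlapped between the groups. Nefh went from 7.10 ± 0.623% to 8.06 ± 0.558% and Ina from 24.9 ± 0.988% to 23.3 ± 0.902% (SD, n = 4 each), both with overlap. The shares sum to a whole, so a higher share of 1 gene lowers those of the rest.

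**Figure D2:**
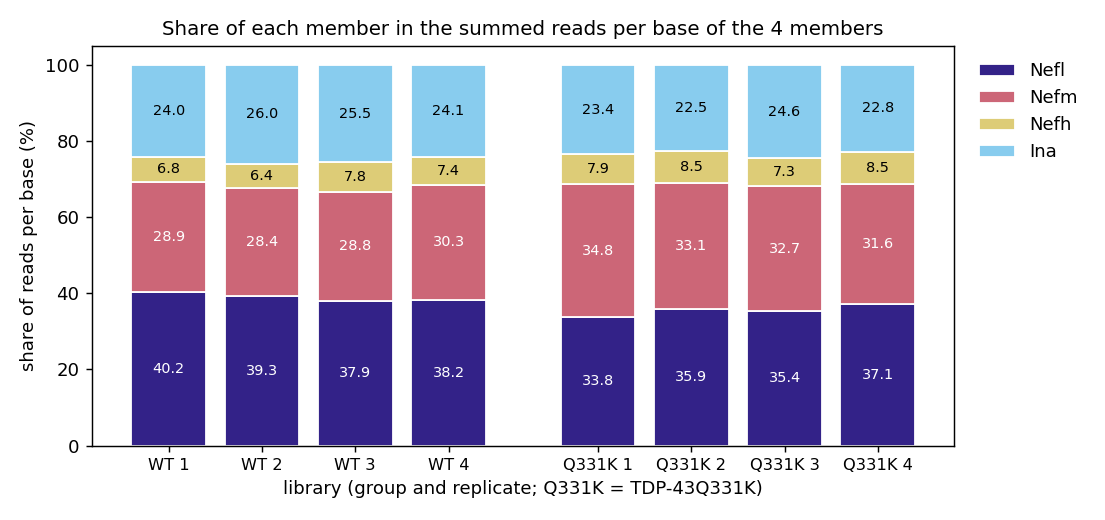
Share of each member (percent, vertical axis) in the summed reads per base of the 4 members, 1 bar per library. The Nefm band runs from 28.4% to 30.3% in WT and from 31.6% to 34.8% in TDP-43Q331K, and the Nefl band is narrower in each mutant library than in any WT library.

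Ratios within a library do not depend on library size, and transcript length cancels in their difference between groups. The 6 pairwise ratios were set against genotype on the log2 scale by an exact permutation test, two-sided, 4 libraries against 4, whose smallest possible p over 70 splits is 0.0286. Adjustment over the 6 ratios was by Benjamini-Hochberg. No ratio passed 0.05 after adjustment, and the 3 that reached the smallest possible p had an adjusted p of 0.0571. With 3 of the 6 ratios at that smallest p, the adjusted p cannot be lower, so the test could not call them. The 6 ratios come from 4 genes and are not independent.

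The Nefm/Nefl ratio, in reads per base, was 0.718, 0.722, 0.758 and 0.793 in WT and 1.03, 0.923, 0.924 and 0.852 in TDP-43Q331K. Its groups did not overlap, and in TDP-43Q331K replicate 1 the Nefm transcript outnumbered Nefl per base. The log2 difference was 0.32 (SE 0.07, exact permutation p 0.0286).

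The Nefh/Nefl ratio was 0.170, 0.162, 0.205 and 0.194 in WT and 0.235, 0.237, 0.207 and 0.229 in TDP-43Q331K. The groups were apart, though WT replicate 3 and TDP-43Q331K replicate 3 nearly met. The log2 difference was again 0.32 (SE 0.09, exact permutation p 0.0286).

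The Ina/Nefm ratio was 0.832, 0.915, 0.888 and 0.794 in WT and 0.672, 0.680, 0.751 and 0.722 in TDP-43Q331K, lower in every mutant library than in any WT library. Its log2 difference was -0.28 (SE 0.06, exact permutation p 0.0286).

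The other 3 ratios overlapped between the groups. Nefh/Nefm was 0.244 ± 0.0196 in WT and 0.244 ± 0.0220 in TDP-43Q331K (SD, n = 4 each, exact permutation p 1.0). Ina/Nefl was 0.640 ± 0.0337 in WT and 0.657 ± 0.0418 in TDP-43Q331K (SD, n = 4 each, exact permutation p 0.514). Ina/Nefh was 3.53 ± 0.380 in WT and 2.91 ± 0.324 in TDP-43Q331K (SD, n = 4 each), with overlap and an exact permutation p of 0.0857 (0.129 adjusted).

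**Figure D3:**
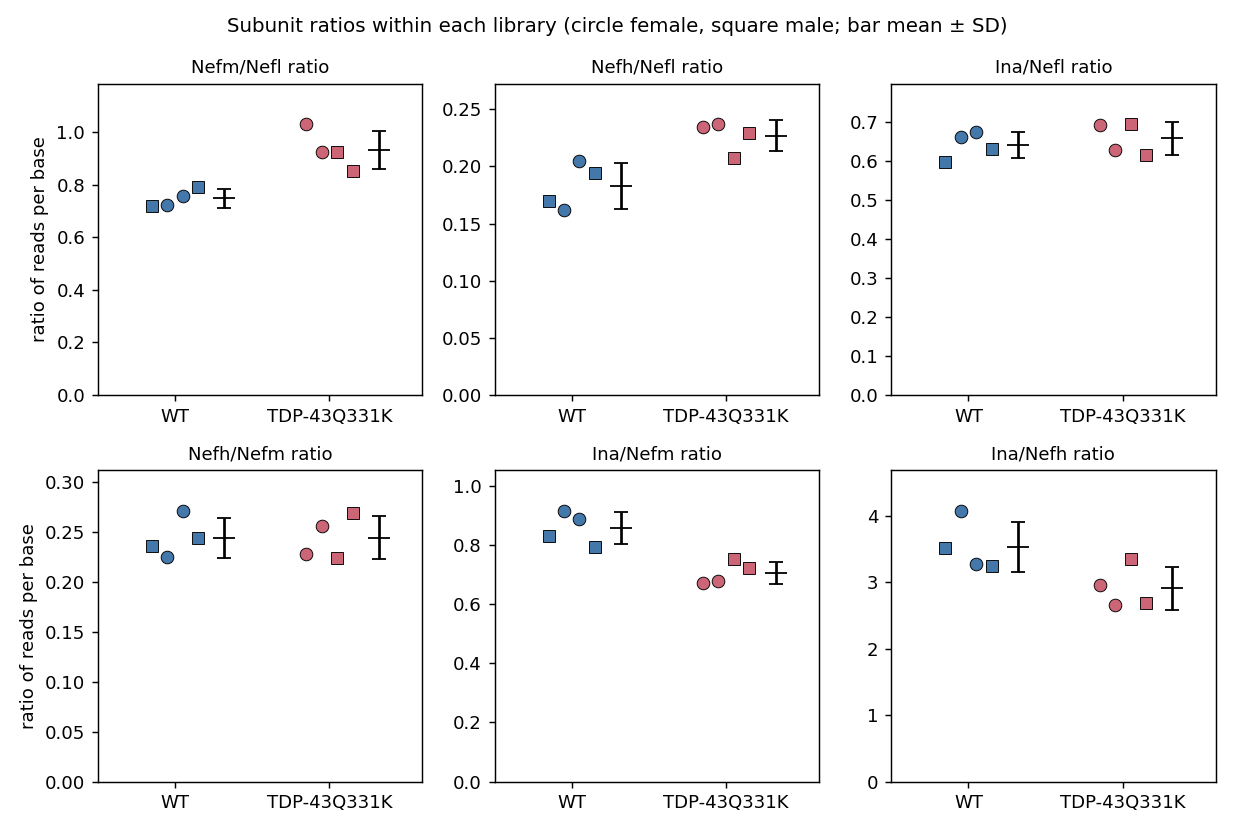
The 6 subunit ratios in reads per base (vertical axes, each from 0) in each library, with the colours and symbols by group and sex and mean ± SD beside each group. Nefm/Nefl and Nefh/Nefl are higher and Ina/Nefm lower in all 4 TDP-43Q331K libraries, while Nefh/Nefm and Ina/Nefl overlap.

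The genotype difference of Nefm was seen within each sex. In female libraries it stood at 202 and 228 CPM in WT and at 305 and 292 CPM in TDP-43Q331K, and in male libraries at 214 and 218 CPM in WT and at 258 and 248 CPM in TDP-43Q331K. The difference in mean log2 CPM was 0.47 in females and 0.23 in males. The interaction of genotype and sex had an edgeR unadjusted p of 0.0415 and an adjusted p of 0.724 over all genes, so a difference between the sexes did not pass. For Nefh these differences were 0.44 in females and 0.26 in males, for Nefl 0.07 and -0.00, and for Ina 0.06 and 0.09. With sex as a covariate Nefm had a log2 fold change of 0.35 and an edgeR adjusted p of 0.0405.

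Among the 6 pairs of members, Nefm and Nefh had the highest correlation over all 8 libraries, which includes the genotype difference. Pearson's r of their log2 CPM was 0.889 (permutation p 0.00342, 0.0205 adjusted over the 6 pairs) and Spearman's rho 0.905 (permutation p 0.00456, 0.0274 adjusted). Without the 2 libraries farthest from the median of Nefm, TDP-43Q331K replicates 1 and 2, r was 0.811. Both genes had the higher mean in the mutant group, and on deviations from the group means r was 0.707. There the order turned, with Nefl and Nefh at 0.730. The other 5 pairs had r between 0.503 for Nefl and Nefm and 0.664 for Nefm and Ina, with adjusted permutation p of 0.156 or more.

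Likeness to a member was measured by r over the 8 libraries among 10772 genes whose mean log2 CPM reached 3. The 5 that followed Nefm most closely were Afg3l2 (r 0.985), Pip4p2 (0.982), Fam53b (0.979), Cd47 (0.977) and Castor2 (0.974). Each had every mutant library above every WT library, as 4.49% of all genes had. Their choice by likeness to Nefm, whose groups were apart, favours this, so it is no separate result. Their edgeR adjusted p ran from 0.0575 for Fam53b (log2 fold change 0.30) to 0.186 for Cd47. The closest to Nefh were Kctd9 (r 0.980), Dnttip1 (0.974), Rit2 (0.961), Sipa1l2 (0.956) and Dnajc15 (0.954). Nefl was followed most closely by Pmpcb (r 0.979), Sf3b2 (0.977), Gpt (0.972), Got2 (0.971) and Snhg6 (0.967), and Ina by Col24a1 and Nog (both 0.963), Rbm17 (0.949), Sdhaf3 (0.947) and Pxk (0.936). No gene was in the top 5 of more than 1 member. These r values are a description over 8 libraries that share the genotype difference.

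The genes beside the members on the chromosome were also measured. Dock5 and Stc1 were the nearest measured genes to Nefl and Nefm. Dock5 had a log2 fold change of 0.31 (edgeR adjusted p 0.114) with mutant libraries all above WT, and Stc1 had 0.20 (0.573). Thoc5 and Ap1b1, the nearest to Nefh, had 0.08 and -0.03. Nt5c2, which overlaps Ina, had 0.02, and Pcgf6 and the non-coding AC122442.1, the nearest to Ina, had 0.22 and 0.16. The edgeR adjusted p of these 5 genes lay between 0.149 and 0.867. In Pcgf6, as in Dock5, every mutant library was above every WT library, which held for 4.49% of all genes.

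Markers of thalamus and olfactory bulb lay to the same side as Nefm and Nefh. The 7 thalamic markers all had positive log2 fold changes, and their summed level ran from 67.0 to 76.1 CPM in WT and from 78.7 to 201 CPM in TDP-43Q331K, without overlap. Without TDP-43Q331K replicate 4, 4 of the 7 had the higher mean CPM in the mutant group, all but Tnnt1, Lef1 and Ramp3. The mutant sums then ran up to 110.3 CPM, still above WT. Of the 7, only Slc17a6 had every mutant library above every WT library, as 4.49% of all genes had. Prkcd had 67.7 CPM in TDP-43Q331K replicate 4, 9.48 to 16.4 CPM in the other mutant libraries and 8.69 to 12.5 CPM in WT. Zic1 was lowest in WT replicates 1 and 2 (9.78 and 6.69 CPM), which also had the lowest olfactory bulb sums (15.01 and 18.2 CPM). With Zic1 taken out of the thalamic sums the groups overlapped, WT replicates 1 and 2 then lying above TDP-43Q331K replicates 1 and 3. The 6 olfactory bulb markers were also all positive, with sums from 15.01 to 133 CPM in WT and from 47.0 to 161 CPM in TDP-43Q331K. Of these 13, edgeR, limma-voom and limma-trend called 0 and DESeq2 called Slc17a6, while Slc17a6, Zic1 and Prkcd had an edgeR unadjusted p under 0.05. The library with the highest thalamic sum, TDP-43Q331K replicate 4, had the lowest Nefm of its group. WT replicate 3, which had the most Nefm and Nefh of the WT libraries, also had the highest olfactory bulb sum of that group. The olfactory marker Eomes was as low as 0.0862 CPM in WT replicate 2, against 18.4 CPM in TDP-43Q331K replicate 2. With the mean of the 13 markers as a covariate, the log2 fold change of Nefm was 0.31 (SE 0.09, edgeR adjusted p 0.386) and that of Nefh 0.19 (SE 0.10, 0.564), against 0.35 for Nefh without it.

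Of the other cell types, all 8 oligodendrocyte markers had positive values, their median log2 fold change being 0.105, with sums of 3899 to 4571 CPM in WT and 3935 to 5523 CPM in TDP-43Q331K. Without WT replicate 2, or without TDP-43Q331K replicate 4, 6 of the 8 had the higher mean CPM in the mutant group. Without TDP-43Q331K replicate 2, 7 did. With the mean of the oligodendrocyte markers as a covariate Nefm had 0.37 (edgeR adjusted p 0.0564). The 8 fast-spiking interneuron markers, of a cell type rich in neurofilaments, had 5 positive members and a median of 0.158. Pvalb, Kcnc2 and Erbb4 were negative, at -0.09, -0.04 and -0.002. The sums of the 8 ran from 1122 to 1461 CPM in WT and from 1339 to 1528 CPM in TDP-43Q331K, with overlap. The 10 markers of layer 5 output neurons, whose thick axons leave the cortex, had 3 positive members and a median of -0.054. They were split, with 2 higher and 2 lower at an edgeR unadjusted p under 0.05. Bcl6, which DESeq2 called higher, was at 0.20 (edgeR adjusted p 0.123), and Fezf2 and Crym were at -0.34 (0.211) and -0.44 (0.253). The 10 pan-neuronal markers had 1 positive member and a median of -0.0602. Layer 6 markers had 3 of 8 positive and a median of -0.0655, and Cplx3 among them was called lower (log2 fold change -0.52, edgeR adjusted p 0.0472). Ccn2, at -0.49 (edgeR adjusted p 0.0568), was also called lower by limma-voom, limma-trend and DESeq2, and Rprm, at -0.39 (0.0531), by DESeq2. The 7 upper layer markers had 0 positive members and a median of -0.116, with sums of 716 to 917 CPM in WT and 692 to 842 CPM in TDP-43Q331K, and the 3 other tools and edgeR called 0 of them, 1 having an edgeR unadjusted p below 0.05. The part of interneurons and of cortical layers in the Nefm result was not tested. Choroid plexus sums ran from 15.5 to 402 CPM in WT and from 44.7 to 577 CPM in TDP-43Q331K, with 6 of 6 markers positive. Without WT replicate 1 the WT sums ran from 15.5 to 16.4 CPM, below every mutant sum, and without any other library the groups overlapped. Striatal sums ran from 452 to 1256 CPM in WT and from 564 to 1192 CPM in TDP-43Q331K.

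**Figure D4:**
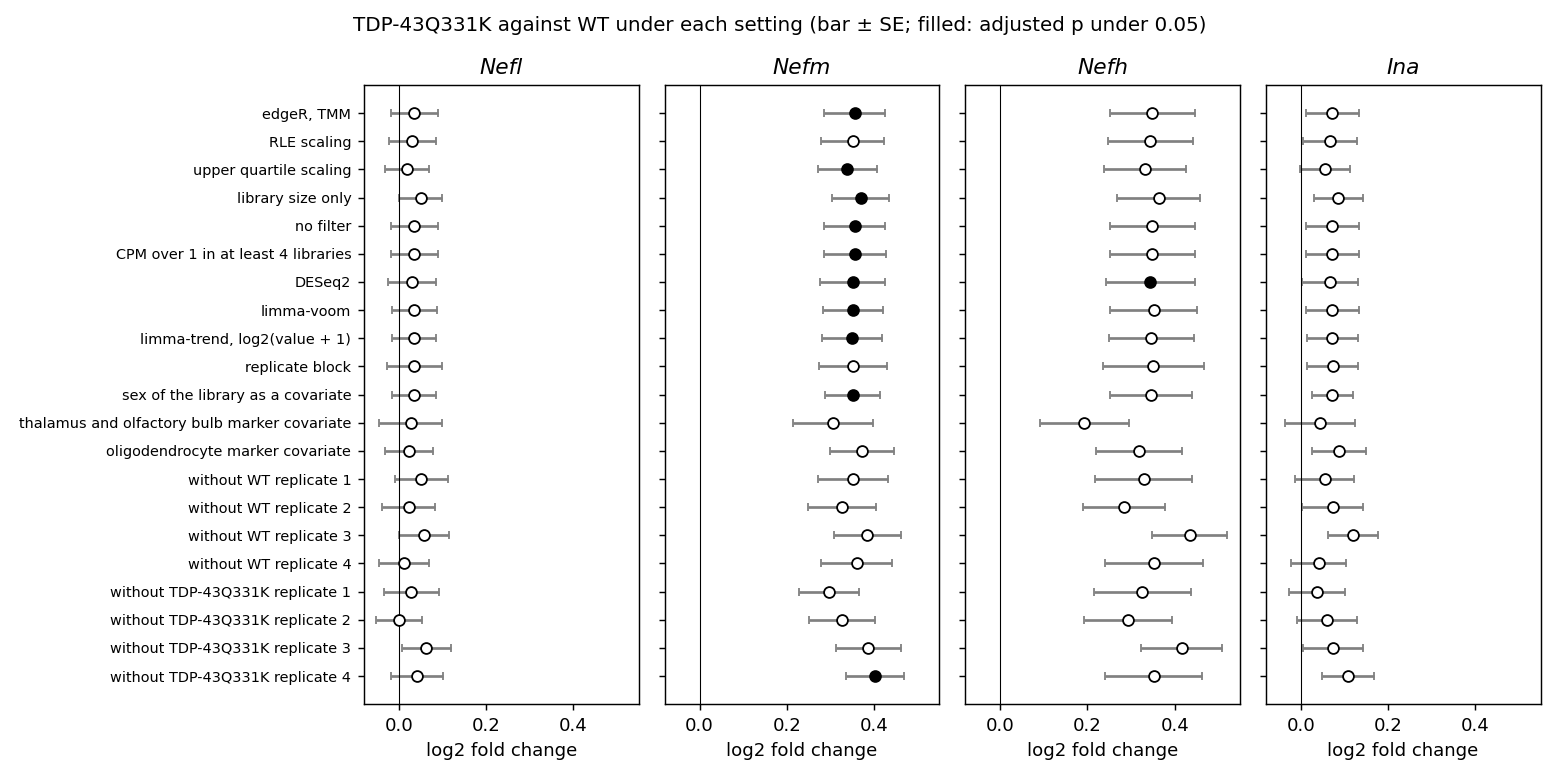
Log2 fold change of TDP-43Q331K against WT (horizontal axes) with its SE for each member under each setting, filled where adjusted p is under 0.05. Nefm lies between 0.30 and 0.40 throughout, Nefh is at 0.19 with the thalamus and olfactory bulb covariate, and Nefl and Ina stay near 0.

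Genes that act on or with neurofilaments were read from lists beside the median of all genes, 0.00445, and the 15.7% of all genes with an unadjusted p under 0.05. In these 5 lists 0 genes passed edgeR's all-gene test, and limma-voom and limma-trend also called 0.

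Other intermediate filament genes, 14 of 17 measured, had 9 positive members and a median of 0.0205, and DESeq2 called 0. Lmnb1, a nuclear lamin gene, was the 1 member under an unadjusted p of 0.05, at a log2 fold change of 0.21 (edgeR adjusted p 0.173). Peripherin, the neurofilament partner of peripheral neurons encoded by Prph, was low in this tissue, with 1.14 ± 0.511 CPM in WT and 0.656 ± 0.275 CPM in TDP-43Q331K (SD, n = 4 each, edgeR adjusted p 0.322). Krt12, a keratin gene, and Synm, which encodes synemin, had log2 fold changes of -0.25 and -0.11.

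The kinases and phosphatases that act on filament tails lay mostly below WT. Of 22 genes, 18 had a negative log2 fold change, with a median of -0.0521, and 7 were lower and 0 higher at an unadjusted p under 0.05. Of all 15693 genes, 8122 had a positive value, and 1220 were lower and 1242 higher by the same measure. The 10 pan-neuronal markers had a like median, -0.0602. Mapk3 and Ppp2r2c were called lower by DESeq2, which called 4.47% of all genes in either direction. The summed level of all 22 ran from 8016 to 8770 CPM in WT and from 7670 to 7886 CPM in TDP-43Q331K, without overlap. Mapk3, the gene of the kinase ERK1, was at 153 ± 17.9 CPM in WT and 127 ± 9.20 CPM in TDP-43Q331K (SD, n = 4 each), a log2 fold change of -0.27 (edgeR adjusted p 0.158). Cdk5r2, which encodes an activator of the tail kinase Cdk5, was at -0.18 (0.180), and the phosphatase 2A subunit genes Ppp2r2c and Ppp2r2b at -0.14 (0.171) and -0.13 (0.167), by the same test.

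Linkers and transport genes were split. Of 16, 7 were positive, with a median of -0.00243, and 5 were higher and 2 lower at an unadjusted p under 0.05. Bicd2, which encodes a dynein adaptor, was at 93.9 ± 5.36 CPM in WT and 114 ± 8.67 CPM in TDP-43Q331K (SD, n = 4 each), a log2 fold change of 0.28 (edgeR adjusted p 0.0683). The kinesin heavy chain gene Kif5b was at 0.17 (edgeR adjusted p 0.147), whereas its neuronal relative Kif5a was at -0.18 (0.137). In both, the mutant libraries did not overlap WT, as in 9.68% of all genes in either direction. DESeq2, which called 4.47% of all genes, called Bicd2, Kif5a and Kif5b. The cytolinker gene Dst was at 0.16 (edgeR adjusted p 0.176).

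Genes of filament turnover had 3 of 8 positive, a median of -0.0159, and no member with an unadjusted p below 0.05. DESeq2 also called 0. Trim2, whose product is a ubiquitin ligase of the light subunit, was at -0.08, while Cast and Capn2 were at 0.14 and 0.06. Of 7 genes for proteins that bind neurofilament messenger RNA, 2 were positive, and the median was -0.0939. Lower at an unadjusted p below 0.05 were 2 of them, Tardbp, which DESeq2 called, and Arhgef28, at 43.5 ± 4.75 CPM in WT and 34.4 ± 7.81 CPM in TDP-43Q331K (SD, n = 4 each, log2 fold change -0.34, edgeR adjusted p 0.289). Ybx1 and Elavl4 were at -0.09 and -0.10.

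**Figure D5:**
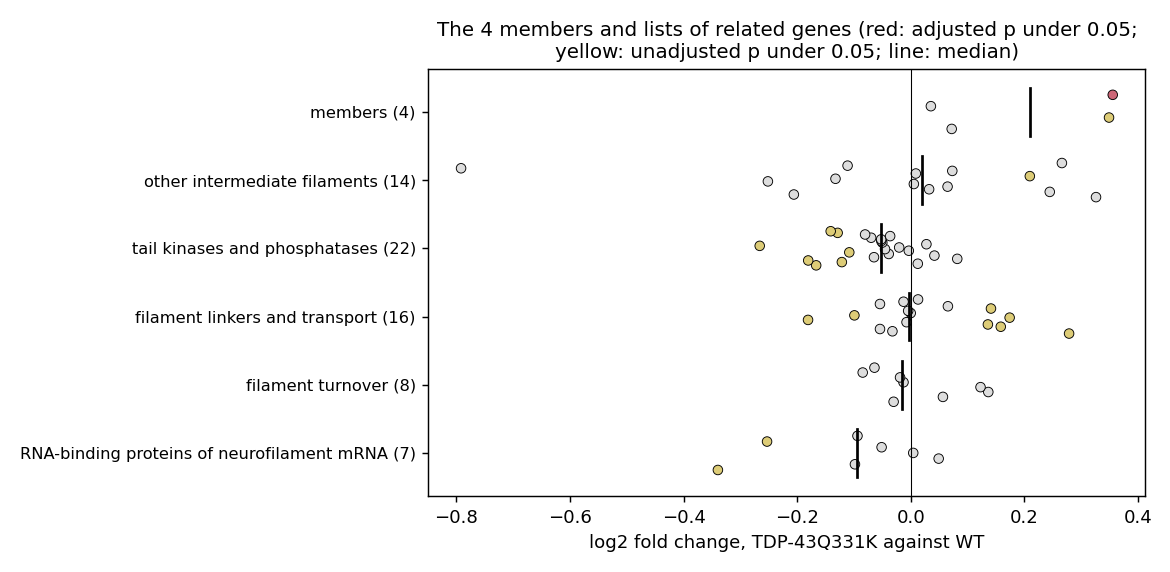
Log2 fold change of TDP-43Q331K against WT (horizontal axis) for the 4 members and 5 lists of related genes, 1 point per gene, with the median of each list as a line and the number measured in brackets. Nefm is the only point past an adjusted p of 0.05, and the tail kinases and phosphatases lie mostly below 0.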

How the data were processed

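Per the file headers, the authors deposited raw counts per gene and a TMM-normalised signal. In every column the deposited signal is the count times a constant. Among the tools in the submitters' processing notes are STAR 2.7.6a, R 4.3.1 and edgeR 4.4.2, with the build GRCm39 and no roles. No source used here gives the counting program, its strand setting or the annotation. Columns were matched to samples by their names in the labels. GENCODE M21 (GRCm38) gave symbols for 15470 of 15693 identifiers.

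The counts were tested with edgeR 4.0.16 in R 4.3.3 (TMM scaling, filterByExpr, which removed 0 genes, genotype as the only term, quasi-likelihood, two-sided), and p values were adjusted by Benjamini-Hochberg over all genes. SE is the log2 fold change over the root of F. DESeq2 1.42.0, limma 3.58.1, other scalings and filters, covariates, a replicate block and leaving out each library were the alternatives. Ratios and correlations used SciPy 1.17.1. Libraries of a group differed by more than sampling noise (chi-square per degree of freedom 14.6 or more). The test was checked on simulated counts.

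Named genes were the members, Tardbp, Xist, neighbours, the 4 smallest p of each related list, up to 3 of each marker list, and the 5 most alike. Eomes, Tnnt1, Lef1, Ramp3, Pvalb, Kcnc2 and Erbb4 were added after their values were seen. Of the genes the rule names, 1 is not reported here. Members, lists and tests were chosen with earlier results of these data known.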

Additional observations from a re-analysis of the deposited data

How the results depend on the processing

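The sign of the difference held for all 4 members under every alternative run. The number of genes called, 148 with all settings as given, was 701 with DESeq2, 14 with the replicate block, 12 with the thalamus and olfactory bulb covariate and between 51 and 129 without 1 library, and from 129 to 157 under the other alternatives. Of those called, 54 were higher and 94 lower, against 64 and 73 on library size alone. Nefm had 0.35 with RLE scaling (adjusted p 0.0520), 0.35 with the replicate block (0.180), 0.31 with the thalamus and olfactory bulb covariate and 0.37 with the oligodendrocyte covariate, and missed the threshold in each, as in 7 of the 8 fits without 1 library (0.30 to 0.40). It passed in the other 8 alternatives. Nefh passed with DESeq2 alone, at 0.34. The Nefh/Nefm ratio, whose log2 difference was -0.00, ran from -0.048 to 0.051 without 1 library and changed sign in 4 of these. The ratios are the same on the deposited normalised values, and with 1 library left out, within sex or paired by number their exact tests cannot pass 0.05. The cause of these changes was not tested, but fits without 1 library have fewer samples. Samples with the same replicate number did not deviate together (correlations from -0.435 to 0.0956), so the numbers do not pair them. Depth was not the limit for these genes, since the smallest member count in a library was 2886. The marker counts without each library and the thalamic sums without Zic1 were added after seeing the data.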
